A study of Mus musculus with 8 samples.

Results

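The 10 genes described here carry out and control antigen presentation on MHC class II molecules: H2-Aa, H2-Ab1, H2-Eb1, H2-Eb2, H2-DMa, H2-DMb1, H2-DMb2, Cd74, Ciita and Cd86. Array probes were taken as theirs when the accession printed for the probe belongs to one of them, which gave 11 probes, 2 of them for H2-Ab1, and all 10 genes passed the filter on dim probes. They stand among 14480 named genes and 23102 features tested. The members of the list were chosen with earlier results of these data known.

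RNA of peritoneal macrophages was hybridised to 8 single-colour Agilent arrays, 2 for each of 4 groups. Fra-1 knockouts (Fra-1lox/lox MxCre-/+) carry a floxed Fosl1 allele and Cre under the interferon-inducible Mx promoter, and Fra-1 controls (Fra-1lox/lox) carry the floxed allele without Cre. Fra-2 knockouts (Fra-2lox/lox LysMCre-/+) carry a floxed Fosl2 allele and Cre under the myeloid LysM promoter, and Fra-2 controls (Fra-2lox/lox) are floxed without Cre. Fra-1 and Fra-2 are AP-1 transcription factors. All mice were 8 weeks old, male or female, on a mixed 129/C57Bl6 background, and the submitters' counts of mice match 1 mouse per array, with littermates as controls. Lavage cells were plated overnight and the adherent fraction was used, so other adherent cells could be present. The descriptions of all 4 Fra-1 line arrays, and of no Fra-2 line array, add thioglycollate elicitation, an irritant that draws monocytes into the peritoneum. A difference between the lines therefore cannot be told apart from elicitation or preparation.

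Class II molecules are pairs of an alpha and a beta chain that display peptides from engulfed proteins to CD4 T cells. The chains are made with the invariant chain, Cd74, which blocks the peptide groove and guides them to endosomes. There the DM pair exchanges the last piece of Cd74 for peptides, and in B cells the DO pair restrains DM. Ciita, the class II transactivator, does not bind DNA itself; it docks on RFX, CREB and NF-Y factors that sit on the X and Y boxes of these promoters, and in macrophages interferon gamma induces it. Cd86 gives T cells the co-stimulatory signal that goes with the peptide. In mouse peritoneum, B cells, dendritic cells and monocyte-derived macrophages are rich in class II, whereas most large resident macrophages have little.

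The promoters of the class II genes are printed because they hold the shared elements through which Ciita acts. RefSeq promoters of assembly GRCm38.p6 were matched for 6 members. Each line gives 60 bases in the direction of transcription, with the X box letters AACNGATG and the Y box core ATTGG in capitals, both searched on either strand. These letters were chosen after the promoters had been read.
H2-Aa: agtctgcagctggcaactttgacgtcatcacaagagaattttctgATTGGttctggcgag
H2-Eb1: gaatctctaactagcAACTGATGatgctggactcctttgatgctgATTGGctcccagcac
H2-Eb2: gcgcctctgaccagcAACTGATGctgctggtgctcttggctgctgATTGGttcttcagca
H2-DMb1: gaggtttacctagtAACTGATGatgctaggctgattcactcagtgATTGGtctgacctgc
H2-DMb2: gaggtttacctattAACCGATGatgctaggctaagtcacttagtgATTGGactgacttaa
The stretches lie at chr17:34287857-34287916 on the minus strand for H2-Aa, and on the plus strand at chr17:34305763-34305822 for H2-Eb1, chr17:34325530-34325589 for H2-Eb2, chr17:34153085-34153144 for H2-DMb1 and chr17:34145114-34145173 for H2-DMb2. The Y box core began 48 bases before the annotated start in H2-Aa, 59 in H2-Eb1, 100 in H2-Eb2, 61 in H2-DMb1 and 90 in H2-DMb2. Of the 2 H2-DMa promoters in the table, 1 held the core, at 198 bases before its start, the other did not, neither held the X box letters, and they are not printed.

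Both elements stood together, on the same strand and 15 to 30 bases apart, in H2-Eb1, H2-Eb2, H2-DMb1 and H2-DMb2, with 22 bases between them in the Eb pair and 23 in the DMb pair. Of 32851 mouse promoters of the same length, 2.32% held the X box letters, 37.4% the Y box core and 0.0183% the pair, which is 6 promoters. The other two were BC051142, 2 protein-coding genes away from the nearest class II member on chromosome 17, and Gm35697 on chromosome 19. The printed H2-DMb2 and H2-DMb1 stretches were identical at 85% of their bases, and those of H2-Eb2 and H2-Eb1 at 66.7%. In RefSeq order, H2-DMa, H2-DMb2 and H2-DMb1 are neighbours on chromosome 17, followed after 5 protein-coding genes by H2-Ab1, H2-Aa, H2-Eb1 and H2-Eb2 side by side. Promoters of the other 4 members were not used here, and a letter match describes the sequence and not the binding of a factor.

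Array 75th percentiles of signal ran from 315 to 470, and 47.7% to 57.6% of 59305 spots per array were well above background, lowest for Fra-2 knockout 1. Levels below are log2 signal relative to the array's 75th percentile, so they compare arrays for 1 gene and not genes with each other. Fosl1 fell out of detection in Fra-1 knockouts, above background on 0 of 2 arrays, against 2 of 2 in Fra-1 controls. Its level averaged −4.48 ± 0.43 in Fra-1 knockouts and −2.35 ± 0.54 in Fra-1 controls (SD, n = 2 each). The probes of Fosl2 disagreed: the brighter averaged 6.78 ± 0.50 in Fra-2 knockouts and 5.54 ± 0.04 in Fra-2 controls, and the dimmer −3.89 ± 0.10 in Fra-2 knockouts and −2.62 ± 0.04 in Fra-2 controls (SD, n = 2 each). Where these probes lie relative to the floxed part was not tested, so they do not show the deletion, and Fra-2 knockout is used as the label of those arrays. The macrophage genes Lyz2, Adgre1 and Cd68 were above background on all 8 arrays.

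The classical chain genes were well above background on all arrays, and each had its highest group mean in the Fra-2 controls. H2-Aa, the A alpha chain, had log2 levels of 4.36 and 4.59 in Fra-1 knockouts and 3.93 and 4.18 in Fra-1 controls. In the other line it had 4.62 and 4.19 in Fra-2 knockouts and 5.08 and 4.44 in Fra-2 controls. The Fra-1 controls were the lowest arrays for H2-Aa, with Fra-2 knockout 2 just above them. H2-Ab1, the A beta chain that pairs with it, had 7.14 and 7.33 in Fra-1 knockouts, 6.96 and 7.0 in Fra-1 controls, 7.50 and 7.55 in Fra-2 knockouts and 8.05 and 8.25 in Fra-2 controls. All 4 groups of H2-Ab1 were apart from each other. The second probe of H2-Ab1 had no value on Fra-2 control 1. On the other arrays its 2 probes differed by at most 0.16.

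H2-Eb1 codes for the E beta chain; C57BL/6 mice make no E alpha chain to pair with it. Its levels were 6.85 and 7.09 in Fra-1 knockouts, 6.77 and 6.84 in Fra-1 controls, 7.47 and 7.20 in Fra-2 knockouts and 7.78 and 7.38 in Fra-2 controls. The 2 lines did not overlap, while within the Fra-2 line the groups did. H2-Eb2, a second E beta gene, had −2.19 and −1.86 in Fra-1 knockouts, −2.82 and −2.47 in Fra-1 controls, −0.17 and −0.04 in Fra-2 knockouts and 0.30 and −0.21 in Fra-2 controls. Every Fra-1 line array was lower for H2-Eb2 than every Fra-2 line array by a wide margin, and the Fra-1 controls were the lowest group.

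Of the genes for the peptide exchanger DM, H2-DMa and H2-DMb2 separated the lines and H2-DMb1 did not. H2-DMa, the alpha chain, had 2.59 and 2.39 in Fra-1 knockouts, 1.95 and 2.13 in Fra-1 controls, 3.17 and 2.80 in Fra-2 knockouts and 3.24 and 2.97 in Fra-2 controls. H2-DMb1, a beta chain, had 4.53 and 4.60 in Fra-1 knockouts, 4.23 and 4.26 in Fra-1 controls, 4.59 and 4.19 in Fra-2 knockouts and 4.80 and 4.50 in Fra-2 controls. For H2-DMb1 the Fra-1 controls lay between the Fra-2 knockout arrays, and the Fra-1 knockouts overlapped both Fra-2 line groups. H2-DMb2, the second DM beta gene, had −3.81 and −4.34 in Fra-1 knockouts, −4.64 and −4.10 in Fra-1 controls, −0.16 and −0.58 in Fra-2 knockouts and 0.12 and −0.80 in Fra-2 controls. Its Fra-1 line arrays sat near the detection limit, and Fra-1 knockout 2 was not well above background, so differences for H2-DMb2 include background. The probes' letters were not used here, and whether the probes of H2-DMb1 and H2-DMb2 tell these related transcripts apart was not tested.

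The invariant chain followed the classical chains. Cd74 had 5.33 and 5.51 in Fra-1 knockouts, 4.84 and 5.30 in Fra-1 controls, 6.19 and 6.05 in Fra-2 knockouts and 6.38 and 6.18 in Fra-2 controls. The lines did not overlap. Ciita had −1.84 and −1.52 in Fra-1 knockouts, −1.71 and −1.66 in Fra-1 controls, −0.76 and −1.74 in Fra-2 knockouts and −0.85 and −1.40 in Fra-2 controls. Fra-2 knockout 2 was as low for Ciita as the Fra-1 line, so the lines overlapped. Cd86 had 0.64 and 0.98 in Fra-1 knockouts, 0.46 and 0.29 in Fra-1 controls, 5.44 and 4.99 in Fra-2 knockouts and 4.37 and 4.31 in Fra-2 controls. All 4 groups were apart for Cd86, with the lines farther from each other than knockouts from controls.

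**Figure D1:**
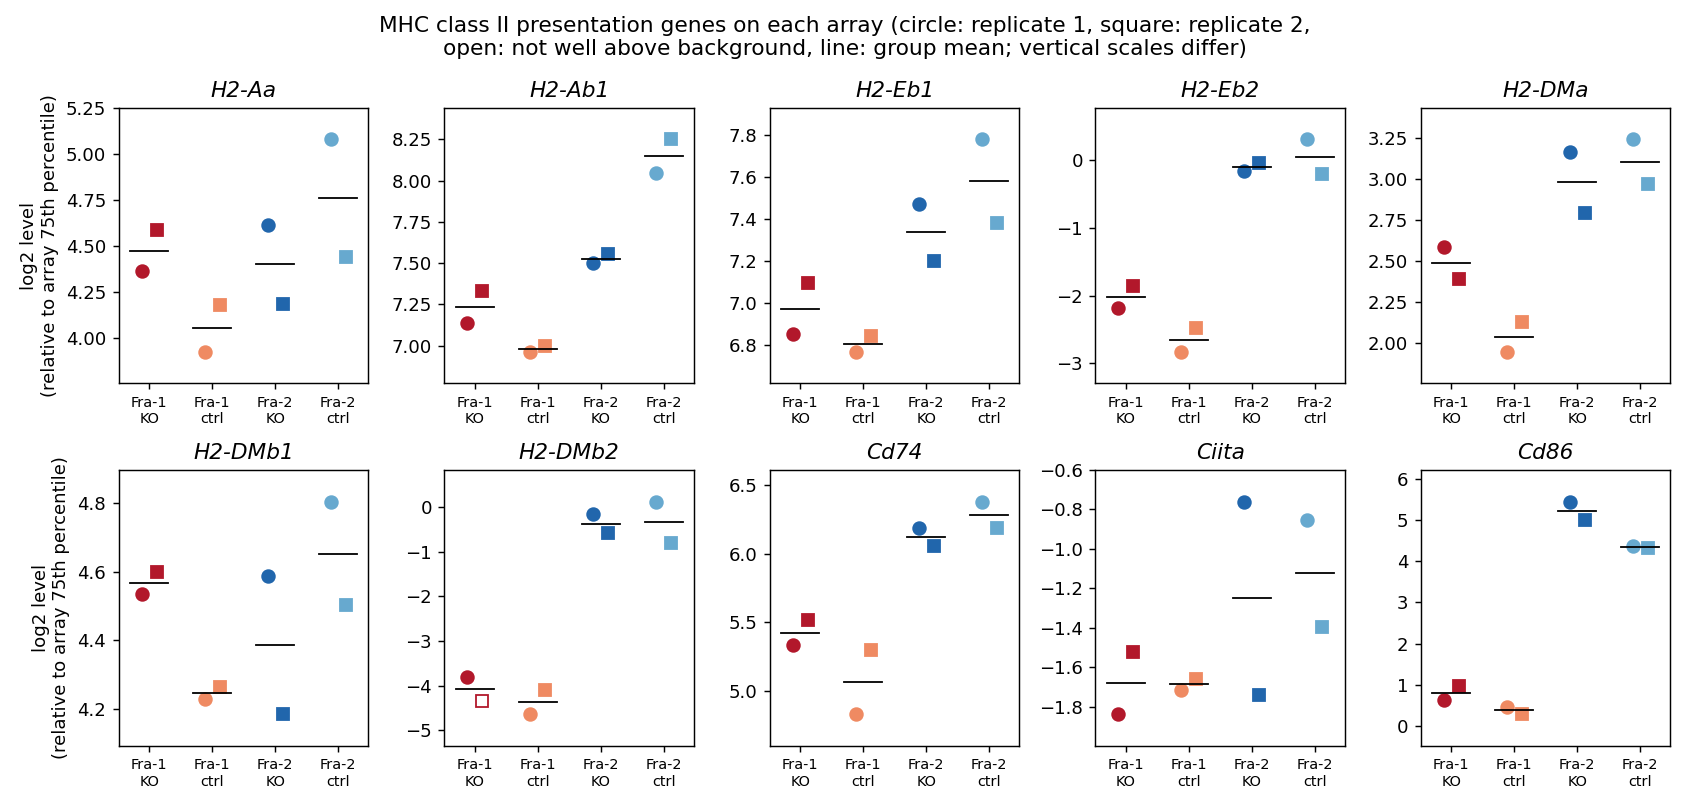
Log2 level relative to the array's 75th percentile (vertical axis, scale differs by panel) of the 10 genes on each array, by group, with circles for replicate 1, squares for replicate 2, open symbols for values not well above background and lines for group means. Cd86, H2-DMb2 and H2-Eb2 show the 2 lines far apart, and Ciita and H2-DMb1 show them overlapping.

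The order of the 4 group means was the same in 7 of 10 genes, from Fra-2 controls through Fra-2 knockouts and Fra-1 knockouts down to Fra-1 controls. H2-Aa and H2-DMb1 had the Fra-1 knockouts above the Fra-2 knockouts, and Cd86 had the Fra-2 knockouts at the top. The shares of all features with this order, or with all groups apart, were not counted. Counts in this paragraph are therefore not read as a trait of the 10 genes. In H2-Ab1 and Cd86 every neighbouring pair of groups was apart on the arrays. In the other 8 genes at least 1 neighbouring pair overlapped, and the Fra-2 knockout arrays overlapped the Fra-2 control arrays in all 8.

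Without the knockouts, class II genes were lower in Fra-1 controls than in Fra-2 controls: 7 of 10 were called lower by limma at an adjusted p under 0.05, and 0 higher. Of all features, 35.8% were called, 17.8% lower and 18.1% higher, in that comparison. The median difference was −1.12 over the 10 genes and −0.03 over all features. Fewer cells of a type and less RNA per cell cannot be told apart in such bulk samples. All 10 genes were lower without overlap of the arrays, as were 37.3% of features.

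The co-stimulator had the smallest adjusted p among them, Cd86 with 15.6-fold lower signal in Fra-1 controls (log2 −3.96 ± 0.20, SE; adjusted p = 0.000167). H2-DMb2 was 16.4-fold lower (−4.03 ± 0.38, adjusted p = 0.000873) and H2-Eb2 6.47-fold lower (−2.69 ± 0.23, adjusted p = 0.000652). With normexp background correction H2-DMb2 was 4.76-fold lower (adjusted p = 0.000348) and H2-Eb2 3.85-fold lower (adjusted p = 0.000142), and with a common floor H2-DMb2 was 9.44-fold lower (adjusted p = 0.00276). The other called genes differed less. Cd74 was 2.32-fold lower (−1.21 ± 0.19, adjusted p = 0.00494), H2-Ab1 2.25-fold lower (−1.17 ± 0.13, adjusted p = 0.00163) and H2-DMa 2.09-fold lower (−1.07 ± 0.19, adjusted p = 0.0073). H2-Eb1 was 1.71-fold lower (−0.77 ± 0.19, adjusted p = 0.0232), and its call was lost under 7 alternatives, among them leaving out Fra-1 control 1, Fra-1 control 2 or Fra-2 control 1 (adjusted p = 0.0928, 0.0767 and 0.100 in that order of arrays). Not called were H2-Aa (−0.70, 95% interval −1.35 to −0.06, adjusted p = 0.086), H2-DMb1 (−0.41, −0.85 to 0.03, adjusted p = 0.130) and Ciita (−0.56, −1.42 to 0.30, adjusted p = 0.260). Within slide 1, which held 3 of these 4 arrays, the median difference was −1.14.

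Between the knockouts of the 2 lines, 4 of 10 genes were called lower in Fra-1 knockouts than in Fra-2 knockouts, and 0 higher; of all features 41% were called, 18.8% lower and 22.3% higher. Cd86 was 21.2-fold lower (−4.40 ± 0.20, adjusted p = 0.000108), H2-DMb2 13.1-fold lower with 1 of 2 Fra-1 knockout arrays above background (−3.71 ± 0.38, adjusted p = 0.00106) and H2-Eb2 3.78-fold lower (−1.92 ± 0.23, adjusted p = 0.00182). With normexp H2-DMb2 was 4.13-fold lower (adjusted p = 0.000539). Cd74 was 1.62-fold lower (−0.70 ± 0.19, adjusted p = 0.0304), a call lost when any 1 of the 4 arrays was left out (adjusted p = 0.0651 to 0.146). H2-DMa differed by −0.49 (adjusted p = 0.0799), H2-Ab1 by −0.29 (adjusted p = 0.129) and H2-Eb1 by −0.36 (adjusted p = 0.171). H2-Aa differed by 0.07 and H2-DMb1 by 0.18, with arrays of both groups overlapping. The median over the 10 genes was −0.46, against 0.02 over all features, and it was −0.73 within slide 1 and −0.31 within slide 2.

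With knockouts and controls of a line pooled, 4 arrays against 4, the same 7 genes as in the controls were called lower in the Fra-1 line. H2-Aa, H2-DMb1 and Ciita were not called (adjusted p = 0.201, 0.485 and 0.140 in that order of genes). Of all features 53.6% were called and 26.3% called lower, and the median was −0.75 over the 10 genes.

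**Figure D2:**
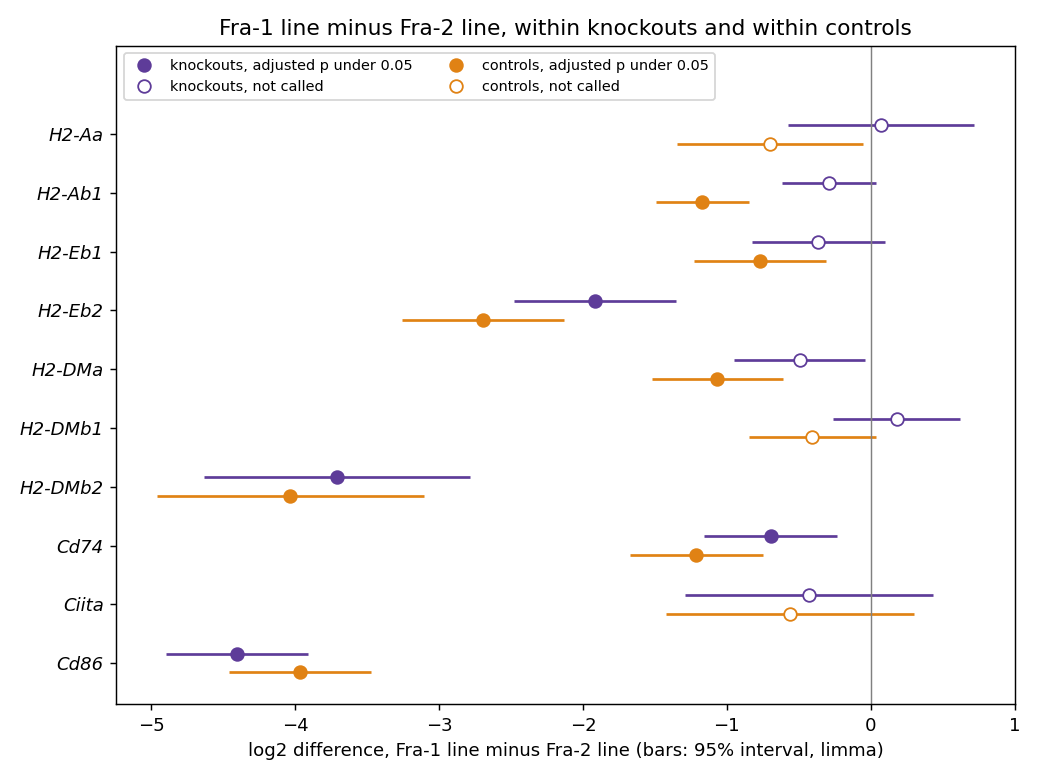
Log2 difference, Fra-1 line minus Fra-2 line (horizontal axis), of each gene between knockouts (purple) and between controls (orange), with 95% intervals from limma; filled points passed an adjusted p of 0.05. Cd86 at −4.40 and −3.96 and H2-DMb2 at −3.71 and −4.03 lie far left in both, while H2-Aa lies at 0.07 between knockouts and −0.70 between controls.

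Other genes of the pathway were examined by lists written with earlier results of these data known. Their counts between controls stand beside 17.8% of all features called lower and 18.1% called higher. The DO pair, H2-Oa and H2-Ob, which restrains DM in B cells, was called lower in Fra-1 controls than in Fra-2 controls for 2 of 2 genes, by −3.37 ± 0.42 and −3.58 ± 0.52 (SE, adjusted p = 0.00222 and 0.00376). H2-Oa had −1.25 and −2.11 in Fra-1 knockouts, −2.80 and −1.84 in Fra-1 controls, 1.22 and 0.98 in Fra-2 knockouts and 1.29 and 0.80 in Fra-2 controls. The lines were widely apart for H2-Oa, while knockouts and controls overlapped in each line.

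Among 7 factors that bind the class II promoters, 1 was called higher and 2 lower in Fra-1 controls than in Fra-2 controls. Those counts were near the shares of all features, 18.1% called higher and 17.8% lower. Rfx5, a subunit of the RFX complex, was not well above background on any Fra-1 line array and was above it on all Fra-2 line arrays, which puts it at least 4.46-fold lower in Fra-1 controls than in Fra-2 controls and at least 2.95-fold lower in Fra-1 knockouts than in Fra-2 knockouts. It passed the filter on dim probes only through the Fra-2 line groups, where it was high, so its call adds no support. Such bounds set the brighter group's mean against the gene's own signal or the lowest signal well above background on each dim array, whichever was higher. They are approximate, since a probe not well above background can lie above that lowest signal. Rfxap, another RFX subunit, differed by −0.81 (adjusted p = 0.038) and Nfya, an NF-Y subunit, by 0.70 (adjusted p = 0.0177).

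Of 9 genes that act upstream of Ciita, 4 were called lower and 0 higher in Fra-1 controls: Socs1, an inhibitor of interferon signalling (−2.47), Irf1, an interferon-induced activator of Ciita (−2.09), the kinase Jak2 (−1.49) and the interferon gamma receptor chain Ifngr1 (−0.86). Irf1 had 4.78 and 4.07 in Fra-1 knockouts, 4.60 and 4.30 in Fra-1 controls, 6.55 and 6.47 in Fra-2 knockouts and 6.35 and 6.73 in Fra-2 controls. Both Fra-1 line groups were thus far below both Fra-2 line groups for Irf1. Interferon gamma targets went the same way, with 9 of 11 called lower and 0 higher in Fra-1 controls. The guanylate-binding proteins Gbp5 (−5.44), Gbp4 (−4.50) and Gbp2 (−3.60) and the chemokine Cxcl9 (−3.66) had the largest called differences of that list. Gbp4 and Cxcl9 were each above background on 2 of 4 Fra-1 line arrays, so their differences include background.

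The processing proteases differed in the other direction. Of 7 genes, 4 were called higher and 0 lower in Fra-1 controls than in Fra-2 controls: cathepsin L, Ctsl (1.5 ± 0.16, adjusted p = 0.0012), cathepsin D, Ctsd (1.20 ± 0.17, adjusted p = 0.00384), the legumain gene Lgmn (1.12 ± 0.25, adjusted p = 0.0227) and cathepsin H, Ctsh (0.55 ± 0.17, adjusted p = 0.0462). For Lgmn 1 of the Fra-2 control arrays had an outlier spot and did not enter. Ctss, cathepsin S, which trims the invariant chain, differed by 0.08 (adjusted p = 0.657).

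Genes that set class II turnover split, with 2 of 4 called higher and 2 lower in Fra-1 controls. Marchf1, the ubiquitin ligase that removes class II and Cd86 from the surface, was lower (−2.34 ± 0.28, adjusted p = 0.00192), as was Sppl2a, the protease that clears the Cd74 stub (−1.0 ± 0.19, adjusted p = 0.0105). Cd83, which opposes Marchf1 in dendritic cells, was higher (1.38 ± 0.14, adjusted p = 0.0011), as was Marchf8, a related ligase (0.46 ± 0.12, adjusted p = 0.0313).

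Other co-stimulatory and inhibitory ligands were called lower for 5 of 6 and higher for 0. Cd40, the receptor for T cell help, differed by −3.42 ± 0.20 (adjusted p = 0.00024), Tnfsf9, a TNF family ligand for activated T cells, by −2.89 ± 0.54 (adjusted p = 0.00902), Icosl, the ICOS ligand, by −2.70 ± 0.23 (adjusted p = 0.000652) and Pdcd1lg2, a PD-1 ligand, by −1.73 ± 0.28 (adjusted p = 0.00538). Tnfsf4 was not above background in any group. Of 11 class I presentation genes 8 were called lower and 0 higher, led by the immunoproteasome subunit Psmb9 (−1.29), the peptide transporter subunit Tap1 (−1.23) and the immunoproteasome subunits Psmb10 (−1.12) and Psmb8 (−0.95).

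Markers of other cell types moved between the lines as well. Over all features, 17.8% were called lower and 18.1% higher between controls, and 18.8% lower and 22.3% higher between knockouts. Of 10 B cell markers tested, 9 were called lower in Fra-1 controls than in Fra-2 controls and 9 lower in Fra-1 knockouts than in Fra-2 knockouts. The summed linear level of the 11 markers on the array was 7.11 to 9.96 in Fra-1 knockouts, 7.39 to 7.82 in Fra-1 controls, 57.0 to 82.4 in Fra-2 knockouts and 43.8 to 91.1 in Fra-2 controls. Of these calls, 3 in the controls (Cd79a, Blk and Ebf1) and 2 in the knockouts (Cd79a and Blk) were of genes above background on no array of the Fra-1 line group, which passed the filter only through groups where they were high. Cd79a and Blk were above background on all Fra-2 line arrays and on no Fra-1 line array, and Cd79b and Ms4a1 on all 8. Cd22 went the other way, with 1.97 and 2.16 in Fra-1 knockouts and 2.49 and 1.97 in Fra-1 controls. In the Fra-2 line it had 1.53 and 0.26 in knockouts and 1.37 and 0.54 in controls. By limma it was called higher in the pooled Fra-1 line (1.22, adjusted p = 0.0245) and not between controls (1.27, adjusted p = 0.0853). Cd22 was the highest of the tested markers on each Fra-1 line array, so it weighs on the summed level there. The B cell antigen receptor gene Cd79b had 1.36 and 0.28 in Fra-1 knockouts, −0.24 and 0.77 in Fra-1 controls, 5.20 and 4.64 in Fra-2 knockouts and 5.38 and 4.23 in Fra-2 controls. The 2 lines were far apart for Cd79b, and knockouts and controls of each line overlapped. The part of B cell RNA in the class II differences was not tested.

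Dendritic cell markers were mixed, with 5 of 9 called lower and 2 higher in Fra-1 controls. Their summed level was 107 to 126 in Fra-1 knockouts, 115 to 118 in Fra-1 controls, 17.1 to 20.9 in Fra-2 knockouts and 32.9 to 36.4 in Fra-2 controls, with Xcr1 below background on all arrays. Itgax carried most of that sum in the Fra-1 line: without it the level was 9.17 to 9.86 in Fra-1 knockouts, 4.86 to 8.10 in Fra-1 controls, 8.53 to 10.3 in Fra-2 knockouts and 8.37 to 16.2 in Fra-2 controls, so the direction between the controls turned. Itgax, the CD11c gene that many macrophages share, was higher in Fra-1 controls (2.35 ± 0.35, adjusted p = 0.00429), as was the transcription factor Batf3 (1.65 ± 0.19, adjusted p = 0.00179). Ccr7, the receptor that takes dendritic cells to lymph nodes, was lower (−2.51 ± 0.54, adjusted p = 0.0153). Their part in the class II differences was not tested.

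Of 10 markers of large resident peritoneal macrophages, 8 were called lower in Fra-1 controls than in Fra-2 controls and 10 lower in Fra-1 knockouts than in Fra-2 knockouts. Their summed level was 14.3 to 15.1 in Fra-1 knockouts, 13.5 to 15.3 in Fra-1 controls, 369 to 446 in Fra-2 knockouts and 234 to 266 in Fra-2 controls, with Timd4 below background in the Fra-1 line. Markers of small peritoneal macrophages and monocytes were 3 higher and 3 lower of 8, with summed levels of 52.6 to 61.6 in Fra-1 knockouts, 56.9 to 107 in Fra-1 controls, 23.4 to 27.9 in Fra-2 knockouts and 38.1 to 88.7 in Fra-2 controls. Without Retnla, which varied between replicates of the controls, the sums were 40.5 to 43.0 in Fra-1 knockouts and 44.1 to 47.8 in Fra-1 controls. In the Fra-2 line they were 14.7 to 17.2 in knockouts and 17.3 to 21.2 in controls. General macrophage markers were 1 higher and 4 lower of 8. Over the 7 of them with a value on every array, which leaves out Csf1r, sums were 889 to 967 in Fra-1 knockouts, 923 to 1166 in Fra-1 controls, 1084 to 1148 in Fra-2 knockouts and 1178 to 1324 in Fra-2 controls. T and NK cell markers were called lower for 4 of 5 and mast cell markers for 7 of 7, while mesothelial markers were called higher for 8 of 8 and fibroblast markers for 6 of 6. Of those calls 3 mesothelial and 2 fibroblast genes, and Timd4 among the large macrophage markers, were above background on no array of the dimmer control group. They passed the filter only through groups where they were high. Between knockouts, Timd4 and Ltbp1 among the 10 called large macrophage markers were above background on no Fra-1 knockout array. Calls of these dim genes add no support. Neutrophil markers were 1 higher and 1 lower of 6, near the shares of all features, and eosinophil markers 1 higher and 1 lower of 3.

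**Figure D3:**
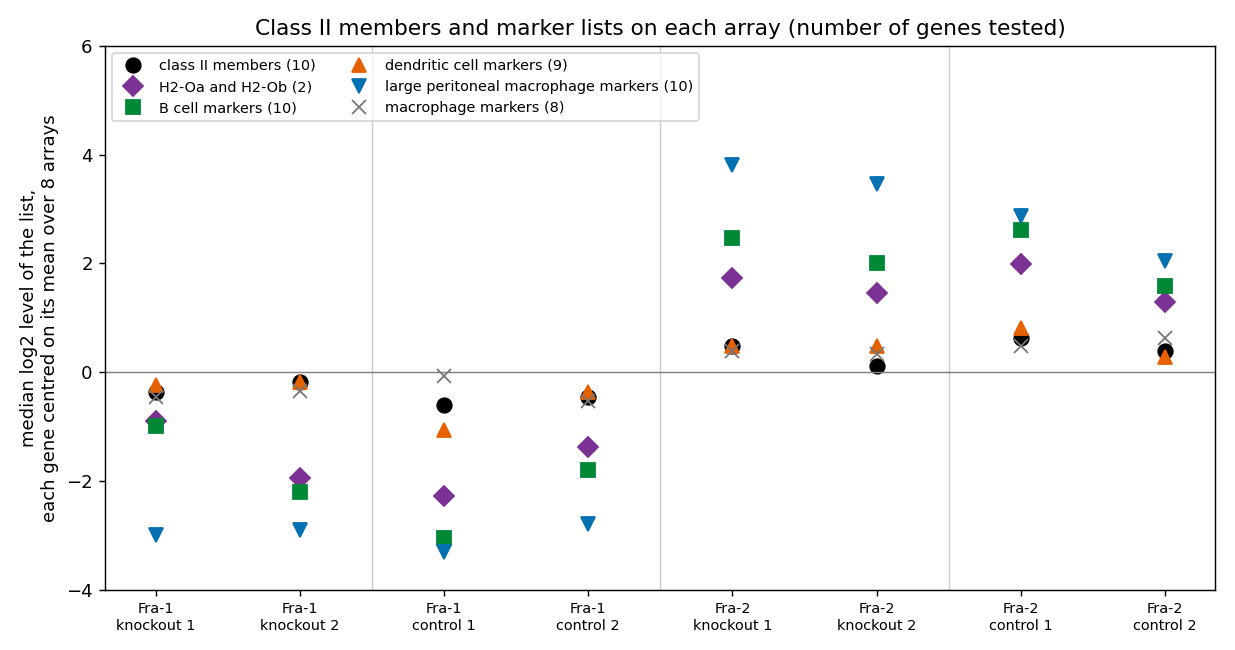
Median log2 level of each list on each array (vertical axis), every gene centred on its mean over 8 arrays, for the 10 class II genes, H2-Oa with H2-Ob and 4 marker lists. The class II genes lie between −0.61 and −0.17 on Fra-1 line arrays and between 0.11 and 0.63 on Fra-2 line arrays, while the B cell markers lie between −3.05 and −1.0 and between 1.59 and 2.61.

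Fra-1 knockouts showed no called change in any of the 10 genes relative to Fra-1 controls, where 0.013% of features, or 3, were called. All 10 differences were above 0, as were 54.9% of all features, and the median was 0.34 against 0.03 over all features. By limma 1 of 10 genes and 2039 of 23090 features had an unadjusted p under 0.05. In 8 of 10 genes both Fra-1 knockouts were above both Fra-1 controls, as in 27.6% of features; H2-DMb2 and Ciita overlapped. Within slide 1 the median was 0.28.

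H2-Eb2 had the largest of these differences, 0.63 (95% interval 0.06 to 1.19, adjusted p = 0.527), followed by H2-DMa with 0.45 (−0.01 to 0.90, adjusted p = 0.570), Cd86 with 0.43 (−0.06 to 0.92, adjusted p = 0.611) and H2-Aa with 0.42 (−0.23 to 1.06, adjusted p = 0.682). Cd74 differed by 0.36, H2-DMb1 by 0.32, H2-DMb2 by 0.29, H2-Ab1 by 0.25 and H2-Eb1 by 0.17. Ciita differed by 0.01, with an interval from −0.85 to 0.87. These intervals reach at most 1.22, the upper bound for H2-DMb2. The B cell markers on the same arrays had a median difference of 0.55 and the dendritic cell markers of 0.38, with 0 of 10 and 0 of 9 called, and their part was not tested.

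The arrays labelled Fra-2 knockout also showed no called change in the 10 genes relative to Fra-2 controls, where 0% of features were called. The median was −0.16 against −0.03 over all features, and 9 of 10 differences were below 0, as were 54.9% of all features. By limma 2 of 10 genes and 2032 of 23098 features had an unadjusted p under 0.05. Those were H2-Ab1, 1.54-fold lower in Fra-2 knockouts (−0.62, 95% interval −0.95 to −0.30, adjusted p = 0.243), and Cd86, 1.83-fold higher (0.87, 0.38 to 1.36, adjusted p = 0.278). H2-Ab1 was the only 1 of 10 with both Fra-2 knockouts below both Fra-2 controls, as in 20.2% of features, and Cd86 the only 1 with both above, as in 15% of features.

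On slide 1 the difference between the Fra-2 knockout and the Fra-2 control array was −0.55 for H2-Ab1 and 1.07 for Cd86, and on slide 2 it was −0.70 for H2-Ab1 and 0.68 for Cd86. The same direction on each slide follows from both knockouts lying on 1 side of both controls, so it adds no support. The other 8 genes differed by −0.36 (H2-Aa) to −0.03 (H2-DMb2), with overlapping arrays. The Fra-2 knockout array on slide 1 was higher than that on slide 2 for 8 of 10 genes. For the Fra-2 control arrays this held for 9 of 10 genes. The shares of all features higher on the slide 1 array were not counted. Medians of the B cell markers, centred over 8 arrays, were 2.47 on slide 1 and 2.02 on slide 2 in Fra-2 knockouts and 2.61 and 1.59 in Fra-2 controls in the same order of slides, and their part was not tested. In Fra-1 knockouts 2 of 10 genes, H2-DMa and H2-DMb2, were higher on the slide 1 array.

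**Figure D4:**
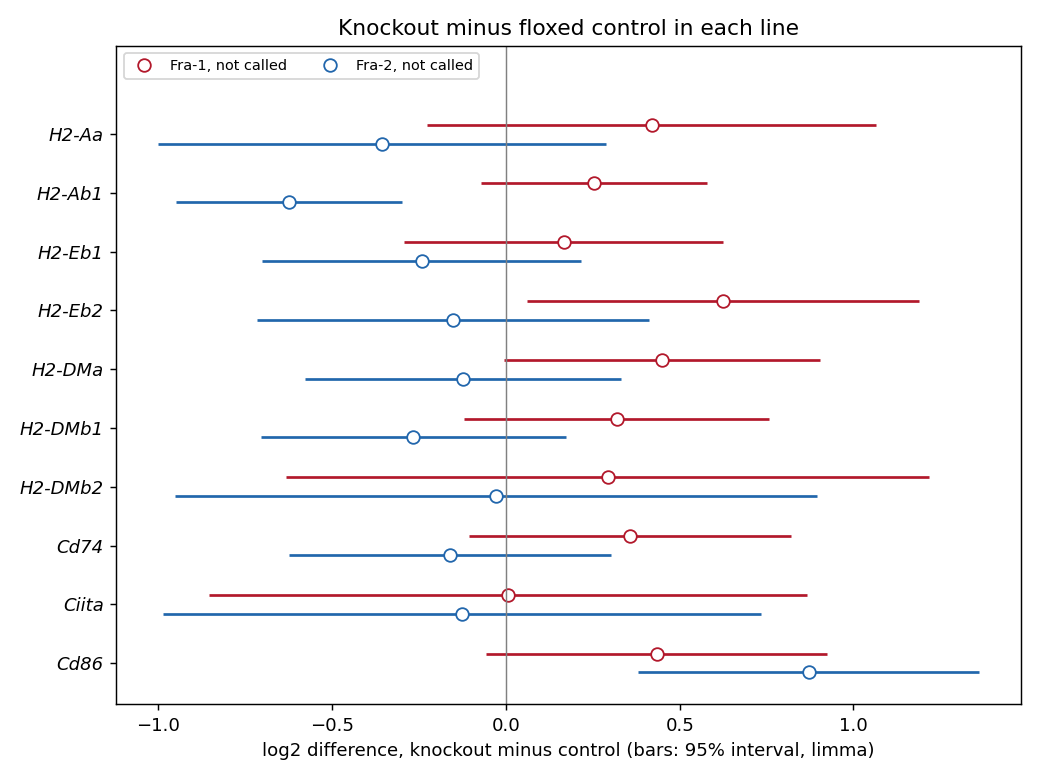
Log2 difference, knockout minus floxed control (horizontal axis), of each gene in the Fra-1 line (red) and the Fra-2 line (blue), with 95% intervals from limma; open points did not pass an adjusted p of 0.05. All Fra-1 line points lie at or right of 0, from 0.01 to 0.63, and the Fra-2 line points lie left of 0 except Cd86 at 0.87.

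The knockout-minus-control difference of the Fra-1 line less that of the Fra-2 line was called for 0 of 10 genes and for 0.00433% of features, or 1. By limma 1 of 10 genes and 2205 of 23086 features had an unadjusted p under 0.05. The median of the difference was 0.54 over the 10 genes and 0.05 over all features. H2-Ab1 had 0.88 ± 0.19 (SE, adjusted p = 0.268), the largest value, and Cd86 the only negative one, −0.44 ± 0.28 (adjusted p = 0.657). A p above the threshold does not show that the knockouts acted alike, and the intervals of the other 8 genes ran from −1.08 at the lowest (Ciita) to 1.69 at the highest (H2-Aa). The comparisons of knockouts with controls and those between lines share arrays and are not independent.

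None of the 57 other pathway genes tested was called in either knockout comparison. In the Fra-1 line Cd40 differed by 0.57 ± 0.20 (adjusted p = 0.506), and in the Fra-2 line Cd83 by 0.79 ± 0.14 (adjusted p = 0.179), the smallest adjusted p values of these lists. H2-Oa and H2-Ob differed by 0.64 and 0.17 in the Fra-1 line and by 0.05 and −0.15 in the Fra-2 line, with the same order of genes.

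The genes whose centred profile over the 8 arrays was nearest to the mean profile of H2-Aa, H2-Ab1, H2-Eb1 and Cd74 were Wdr90, Rdh5, Wfdc18, Nthl1, Adam15, Ankrd13d, Fmc1 and Hexdc. Their root mean square distances ran from 0.10 to 0.14 log2 units, against a median of 0.52 over 13540 candidates. A gene with the same level on all arrays would lie at 0.38, so the distance depends on the size of changes too. The shared profile stood at −0.28 and −0.07 in Fra-1 knockouts, −0.57 and −0.37 in Fra-1 controls, 0.24 and 0.05 in Fra-2 knockouts and 0.62 and 0.37 in Fra-2 controls. Wdr90 had −0.05 and 0.09 in Fra-1 knockouts, −0.26 and −0.01 in Fra-1 controls, 0.53 and 0.58 in Fra-2 knockouts and 0.96 and 0.59 in Fra-2 controls. Its lines did not overlap. The likeness describes these 8 arrays, which share slides and lines.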

How the data were processed

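Processed signals are intensities on a linear scale, background-subtracted by the authors' scanner software (Feature Extraction 11.5.1.1, protocol GE1_1105_Oct12, per the file headers). Columns for well above background, outliers and saturation are other values, flags of 0 or 1 per the file headers. The background signal column holds intensities and was used here only for normexp. Log2 values in the deposited matrix are centred on each probe's median over 8 arrays; its scaling is not given in the sources used here.

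Control spots and spots with outlier flags (191 to 317 per array) were left out and spots of a probe averaged. Each signal was divided by its array's 75th percentile and put on the log2 scale. The filter kept 31145 of 55681 probes, those well above background on both arrays of any group. Accessions in RefSeq's GRCm38.p6 table gave names to 28026 probes (21154 genes); array headers give mm9, so no gene coordinates were taken from it. The brightest probe stood for a gene.

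Group means of the 4 groups were estimated over 8 arrays with limma 3.58.1 (R 4.3.3), with 4 residual and 1.99 prior degrees of freedom. Benjamini-Hochberg adjustment of p ran over all features tested, 23086 to 23101 per comparison because an array's outlier spot drops out, with calls made under 0.05. P-values measure the spread between these arrays, and their number limits precision. The fit was tested on simulated data. Tables and figures were made with matplotlib 3.10.9, pandas 2.3.3 and numpy 2.4.6 under Python 3.11.15.

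The members, gene lists and alternatives were chosen with earlier results of these data known. All 10 members were named. From each pathway list up to 4 called genes were named by size, or those with the smallest p. From marker lists the summed level and leading genes were given. Cd79a, Blk, Ebf1, Cd22, Ltbp1, Ms4a2 and Fcer1a were chosen after their values were seen. Likeness took the 8 nearest named genes. Alternatives were quantile normalization, normexp with offset 50 (on median signals, since no mean signal column was used), the deposited matrix, a common floor, no filter on dim probes, detection on all 8 arrays, the mean of probes, slide as a block, within slides, only the groups compared, a trended prior, a log2 difference of at least 1, and leaving out each array. Slide 1 held Fra-1 knockout 1, both Fra-1 controls, Fra-2 knockout 1 and Fra-2 control 1, and slide 2 the other 3 arrays, with 1 scan per slide. H2-Ea and Ighm were not matched by accession and are not analysed here.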

Additional observations from a re-analysis of the deposited data

Results flagged for a closer look

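H2-Ab1, the A beta chain, had differences of opposite sign in the 2 lines, and neither was called. Both Fra-1 knockouts lay above both Fra-1 controls (0.25 on the log2 scale, 95% interval −0.07 to 0.58), as in 27.6% of features. Both Fra-2 knockouts lay below both Fra-2 controls (−0.62), as in 20.2% of features. The Fra-1 line difference minus the Fra-2 line difference was 0.88 (95% interval 0.42 to 1.34), the largest among the members. That value did not pass the threshold in the limma fit over all features (adjusted p = 0.268). Over the refitted alternatives it ran from 0.78 to 0.98, with adjusted p from 0.182 to 0.607, and within slide 1, where it was not tested, it was 0.71. No other member's groups were apart in opposite directions.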

How the results depend on the processing

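No paired analysis was possible because the replicate numbers only name arrays in accession order and the labels share no number between groups. Slide as a block took its place: the counts of members called were 0, 0, 0, 7 and 5 for Fra-1 knockouts against controls, Fra-2 knockouts against controls, their difference, controls between lines and knockouts between lines. Over all alternatives the counts ran from 6 to 8 between controls and from 3 to 5 between knockouts, and the others stayed at 0. The median over the 10 genes moved beyond its spread in 4 cases: between controls of the lines to −0.75 with all 4 arrays of each line, between knockouts of the lines to −0.73 within slide 1, and when Fra-2 control 2 or Fra-2 knockout 2 was left out. Leaving out each array gave medians from −0.41 (without Fra-2 control 2) to −0.0128 for Fra-2 knockouts against controls, −0.72 (without Fra-2 knockout 2) to −0.31 between knockouts, −1.17 to −0.98 between controls, 0.26 to 0.44 for Fra-1 and 0.39 to 0.72 for the difference of effects.

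Calls changed for 4 members. H2-Eb1 between controls was not called under quantile normalization (adjusted p = 0.0704), without a filter (0.0582), with only the groups compared (0.0501), with a log2 difference of at least 1, or without Fra-1 control 1, Fra-1 control 2 or Fra-2 control 1. Cd74 between knockouts was not called without a filter (0.0729), at a log2 difference of at least 1, or without any 1 of the 4 arrays compared. H2-Aa between controls was called with normexp (0.0494), a trended prior (0.0490) or without Fra-2 control 2 (0.0426), and H2-DMa between knockouts with slide as a block (0.0333) or a trended prior (0.0449). H2-Aa between knockouts reversed to −0.0176 under quantile normalization and ran from −0.14 to 0.29 over leave-one-out fits, as did H2-DMb1 from −0.0215 to 0.38 and Ciita from −0.92 to 0.0586. Reversals when 1 array was left out also met Ciita for Fra-1 (−0.15 to 0.16), and for Fra-2 Ciita (−0.61 to 0.36), H2-DMa (−0.31 to 0.061), H2-DMb2 (−0.49 to 0.43) and H2-Eb2 (−0.41 to 0.10); in the difference of effects they met Ciita (−0.36 to 0.62) and H2-DMb2 (−0.14 to 0.78). None of these reversed values passed the threshold, and the cause was not tested.

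Features called over the whole array ran from 0 to 22 for Fra-1 knockouts against controls, 0 to 53 for Fra-2, 0 to 27 for their difference, 4997 to 12375 between controls (the highest with all 4 arrays of each line) and 5439 to 10110 between knockouts. Without a filter the median of all features moved to −0.21 between controls and −0.24 between knockouts. Fra-2 knockout 1 had the fewest spots above background, and H2-DMb2 lay near the detection limit in the Fra-1 line.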

Other observations

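Among the markers, large resident macrophage genes were above 0 in 9 of 10 differences between Fra-2 knockouts and Fra-2 controls. Their median was 0.90 against −0.03 over all features, and 0 of 10 were called. Of all features 54.9% were below 0 in that comparison. Genes of a list are read on the same arrays, so such counts are not independent. Mast cell markers were below 0 for 7 of 7 in Fra-1 knockouts against Fra-1 controls (median −0.69). Fibroblast markers were below 0 for 6 of 6 (median −1.35) and mesothelial markers for 7 of 8 (median −0.71), with 0 called in each list. The median of all features there was 0.03, and 54.9% of them were above 0. Mast cell markers were also below 0 for 7 of 7 in Fra-2 knockouts against Fra-2 controls (median −0.24). Their summed level was only 1.35 to 1.58 in Fra-1 knockouts and 2.27 to 2.74 in Fra-1 controls. Ms4a2 was above background on no array of any group, and Fcer1a on no Fra-1 knockout array. The fibroblast markers summed to 40.6 to 63.3 in Fra-1 knockouts and 109 to 157 in Fra-1 controls.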
